A study of Mus musculus with 4 samples.

Results

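The 7 ligands of the epidermal growth factor receptor (*Hbegf*, *Areg*, *Ereg*, *Epgn*, *Btc*, *Tgfa* and *Egf*) and 3 of its receptor family (*Egfr*, *Erbb2* and *Erbb3*) were followed in the RNA sequence analysis of IMQ-treated dorsal skin. These 10 genes were taken by symbol as a gene family, and all 10 of them were among the 24346 genes of the deposited files. The Cont-IMQ group was fed the NASH diet, a high-fat, high-cholesterol diet with bile salt, and the 7KC-IMQ group was fed the same diet with the oxysterol 7-ketocholesterol (7KC). All mice were wild type C57BL/6 males, 8 weeks old when the diet began, fed for 3 weeks and then given imiquimod (IMQ) cream for 1 day. There were 4 libraries, 2 per group. Every library came from IMQ-treated skin, so the comparison describes the diet within IMQ treatment and not IMQ itself. Nothing in the labels ties a library to 1 mouse or to a pool, and p-values measure only the spread between these libraries.

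The ligands are made as precursors in the membrane and are released by proteases of the ADAM family. On binding, they pair the receptors and start the RAS-MAPK, PI3K and phospholipase C cascades. In the epidermis, this signaling maintains growth, migration and wound closure, and keratinocytes are known to make several of the ligands themselves and to induce them in psoriasis and after injury. ErbB2 has no ligand of its own and acts as a partner, and ErbB3 binds neuregulins and signals mainly through its partners.

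Levels are given as FPKM, a count of fragments scaled to the exon length of the gene and to the depth of the library, so that levels can be compared between genes. Differences between the groups are given on the log2(FPKM + 1) scale, on which the change of a gene with a low FPKM is understated. They were tested by limma over the 15896 genes with a mean of at least 0.1 FPKM, and all 10 members were above this limit. The files hold no read counts. From the steps in the low values, depth was estimated at 14990000 to 16190000 reads per library. At that depth the member with the lowest level, *Egf*, corresponds to an estimated 73 to 99 reads per library, which cover counting error only. Libraries differed in the hair follicle markers, whose 15 genes summed to 134 FPKM in Cont-IMQ replicate 1, 1644 FPKM in Cont-IMQ replicate 2, and 489 and 432 FPKM in the 7KC-IMQ libraries. The labelled tissue was checked by its epidermal markers, of which *Krt10*, a keratin of the layers above the basal layer, was highest, at 4597 to 8444 FPKM. No gene of the 11 marker lists that is in the files was at 0 in all 4 libraries.

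After adjustment for all genes tested, 0 of the 10 members passed the threshold of 0.05 in limma, where 1 gene (0.00629%) passed among all those tested, and the adjusted p-values of the members ranged from 0.356 to 0.978. At an unadjusted p-value under 0.05, *Tgfa* was higher with 7KC and *Btc* was lower. That is 1 of 10 in each direction, beside 7.5% of all genes tested that were higher and 5.47% that were lower. Without overlap between the groups, 2 of 10 members were higher (*Tgfa* and *Egfr*) and 2 of 10 were lower (*Btc* and *Erbb3*). Of all genes tested, 23.9% were higher in this way and 22.9% lower, so both shares of the members, 20%, were near the background. The smallest p-value that an exact two-sided permutation test allows with 2 libraries per group is 0.333. With the libraries rescaled to the same sum of FPKM, 15% of all genes were higher and 32.1% lower without overlap, and *Egfr* was no longer among the separated members. The median difference was 0.11 over the members and -0.01 over all genes tested.

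**Figure D1:**
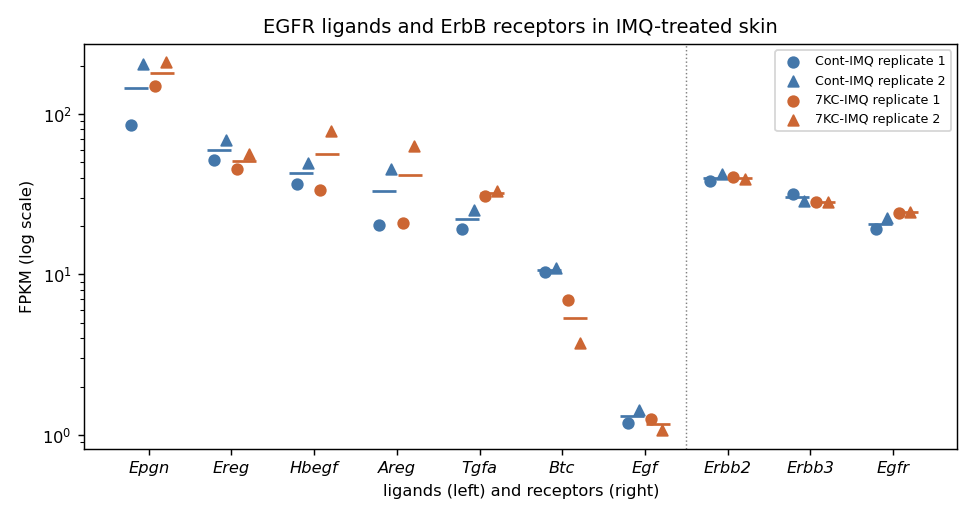
FPKM on a log axis of the 7 ligands and 3 receptors in each of the 4 libraries, with short lines at the group means (n = 2). The 2 libraries of a group lie far apart for *Epgn*, *Hbegf* and *Areg*, whereas *Tgfa* and *Btc* are separated between the groups.

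Of the ligands, *Btc*, which encodes betacellulin, a ligand of EGFR and ErbB4, had the largest difference between the groups. It had 10.3 and 10.9 FPKM with the NASH diet alone (Cont-IMQ replicates 1 and 2), against 6.97 and 3.72 FPKM with 7KC added (replicates 1 and 2). Both 7KC-IMQ libraries were below both Cont-IMQ libraries, and they differed from each other more than the Cont-IMQ libraries did. The group means were 10.6 ± 0.456 FPKM (SD, n = 2) and 5.34 ± 2.30 FPKM (SD, n = 2), which is 0.503 times the level of the Cont-IMQ group. On the log2 scale the difference was -0.92 (standard error 0.27, 95% interval -1.62 to -0.22, adjusted p = 0.356 in limma). The size depended on the 7KC-IMQ libraries, with a difference of -0.54 without 7KC-IMQ replicate 2 and -1.30 without 7KC-IMQ replicate 1. The values correspond to an estimated 419 and 443 reads in the Cont-IMQ group and to 302 and 149 reads in the 7KC-IMQ group.

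*Tgfa* encodes TGF-alpha, a ligand that keratinocytes produce and respond to. Its level was 19.2 and 25.2 FPKM for Cont-IMQ against 30.7 and 33.3 FPKM for 7KC-IMQ. Both 7KC-IMQ libraries were above both Cont-IMQ libraries, and they lay closer to each other than the Cont-IMQ libraries did. With means of 22.2 ± 4.21 and 32.0 ± 1.77 FPKM (SD, n = 2), the ratio of the 7KC-IMQ to the Cont-IMQ mean was 1.44, and the log2 difference was 0.52 (standard error 0.15, 95% interval 0.14 to 0.91, adjusted p = 0.356 in limma). The log2 difference was 0.33 without Cont-IMQ replicate 1 and 0.71 without Cont-IMQ replicate 2.

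The promoters of 4 members are shown because their levels differed in different ways: *Tgfa* and *Egfr* were higher in both 7KC-IMQ libraries, *Btc* was lower, and *Areg* had the widest difference of all members between libraries of 1 group. Each line gives the 250 bases before the transcription start in RefSeq (GRCm38.p6), 5′ to 3′ on the strand of the gene, and capitals mark the motifs found. They are chr6:86194972-86195221 (plus strand) for *Tgfa*, chr11:16751953-16752202 (plus strand) for *Egfr*, chr5:91402995-91403244 (minus strand) for *Btc* and chr5:91139349-91139598 (plus strand) for *Areg*.
Tgfa: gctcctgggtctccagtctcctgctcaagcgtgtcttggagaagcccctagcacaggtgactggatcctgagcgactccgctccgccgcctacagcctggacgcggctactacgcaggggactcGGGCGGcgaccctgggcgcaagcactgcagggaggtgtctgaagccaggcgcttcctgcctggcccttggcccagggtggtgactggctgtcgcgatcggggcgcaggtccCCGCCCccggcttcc
Egfr: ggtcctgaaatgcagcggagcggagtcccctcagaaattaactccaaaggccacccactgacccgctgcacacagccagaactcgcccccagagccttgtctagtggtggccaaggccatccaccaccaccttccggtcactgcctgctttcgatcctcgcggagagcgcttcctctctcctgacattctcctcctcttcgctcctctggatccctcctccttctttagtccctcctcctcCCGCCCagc
Btc: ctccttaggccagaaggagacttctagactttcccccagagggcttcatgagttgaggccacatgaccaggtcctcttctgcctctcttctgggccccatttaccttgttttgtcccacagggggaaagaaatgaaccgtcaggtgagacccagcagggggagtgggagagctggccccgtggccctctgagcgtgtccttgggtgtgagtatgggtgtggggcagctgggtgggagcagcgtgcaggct
Areg: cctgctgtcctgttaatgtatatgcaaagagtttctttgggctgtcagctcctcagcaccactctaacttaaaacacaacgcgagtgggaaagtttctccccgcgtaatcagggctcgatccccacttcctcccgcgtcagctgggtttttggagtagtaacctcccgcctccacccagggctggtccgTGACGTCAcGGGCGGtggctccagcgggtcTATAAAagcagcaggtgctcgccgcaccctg
The motifs searched on both strands were the AP-1 site TGANTCA, the EGR site GCGNGGGCG, the cyclic AMP response element TGACGTCA, the GC box GGGCGG and the TATA box TATAAA. A GC box can share letters with an EGR site. They occur in 6.75%, 4.7%, 1.55%, 32.7% and 12.4% of the 32851 RefSeq promoter windows of the same length. Of the members, 7 had an entry with 8 windows in all, and *Hbegf*, *Ereg* and *Erbb3* had no entry. The windows of these 7 genes held 0 AP-1 and 0 EGR matches, which says only that these letters are not within them. The window of *Areg* held 1 cyclic AMP response element, 1 GC box and 1 TATA box. In that of *Epgn*, not printed, there was 1 TATA box. *Tgfa* had 2 GC boxes and *Egfr* had 1, whereas the *Btc* window held none of the 5 motifs. The G and C content was 69.2% in *Tgfa*, 60.8% in *Egfr*, 59.6% in *Btc* and 57.2% in *Areg*. These matches are a description of the sequence and were not tested against the levels.

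The other 5 ligands overlapped between the groups. *Epgn*, which encodes epigen, had the highest level of all ligands in every library, with 85.9 and 206 FPKM for Cont-IMQ against 149.9 and 209.5 FPKM for 7KC-IMQ. Cont-IMQ replicate 1 was the lowest library, and 7KC-IMQ replicate 1 was below both libraries numbered 2. The log2 difference was 0.41 (standard error 0.45, 95% interval -0.77 to 1.59, adjusted p = 0.73 in limma). *Areg* encodes amphiregulin, which is known as a growth factor of keratinocytes in psoriasis. It had 20.3 and 45.6 FPKM for Cont-IMQ against 20.8 and 62.7 FPKM for 7KC-IMQ. Each group held 1 low and 1 high library, and the low libraries of both groups were nearly equal. The log2 difference, 0.24 (standard error 0.63, adjusted p = 0.901 in limma), was smaller than its error. *Hbegf* encodes heparin-binding EGF-like growth factor, which keratinocytes release at wound edges. Its level was 36.5 and 49.4 FPKM against 33.6 and 78.3 FPKM. The lowest and the highest value were both in the 7KC-IMQ group, and the log2 difference was 0.27 (standard error 0.42, adjusted p = 0.818 in limma).
*Ereg* encodes epiregulin, a ligand of EGFR and ErbB4, and had 51.4 and 68.5 FPKM for Cont-IMQ against 45.1 and 56.6 FPKM for 7KC-IMQ. Its mean was lower in the 7KC-IMQ group, with overlap, by a log2 difference of -0.23 (standard error 0.18, adjusted p = 0.638 in limma). *Egf* itself was low in the skin, at 1.19 and 1.44 FPKM for Cont-IMQ against 1.26 and 1.07 FPKM for 7KC-IMQ. The log2 difference of *Egf* was -0.10 (standard error 0.12, adjusted p = 0.768 in limma). The direction of *Epgn*, *Areg* and *Hbegf* depended on single libraries. Without Cont-IMQ replicate 1, *Epgn* and *Areg* were at -0.22 and -0.32 on the log2 scale, and without 7KC-IMQ replicate 2, *Areg* and *Hbegf* were at -0.53 and -0.33.

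In order of mean level over the 4 libraries, the ligands were *Epgn* (162.8 FPKM), *Ereg* (55.4 FPKM), *Hbegf* (49.4 FPKM), *Areg* (37.4 FPKM), *Tgfa* (27.1 FPKM), *Btc* (7.98 FPKM) and *Egf* (1.24 FPKM). From *Ereg* to *Tgfa*, neighbors in this order overlapped in their ranges and the ranks differed between libraries, although *Hbegf* was above *Areg* in each library, while *Epgn* ranked first, *Btc* sixth and *Egf* last in every library. *Epgn* made up 38.2% and 50.6% of the summed ligand FPKM in the Cont-IMQ libraries, and 52.0% and 47.1% in the 7KC-IMQ libraries. The share of *Btc* was 4.58% and 2.69% against 2.42% and 0.835%. The summed ligand level was 225 and 407 FPKM for Cont-IMQ against 288 and 445 FPKM for 7KC-IMQ, with overlap.

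Of the receptors, *Egfr* encodes the receptor shared by all 7 ligands. It had 19.2 and 22.4 FPKM for Cont-IMQ against 24.3 and 24.5 FPKM for 7KC-IMQ. Both 7KC-IMQ libraries were above the Cont-IMQ libraries and were nearly equal. The means were 20.8 ± 2.25 and 24.4 ± 0.172 FPKM (SD, n = 2), with a log2 difference of 0.23 (standard error 0.10, 95% interval -0.04 to 0.49, adjusted p = 0.434 in limma). It was 0.12 without Cont-IMQ replicate 1 and 0.15 with the libraries rescaled to the same sum. *Erbb2* had 38.2 and 42.1 FPKM for Cont-IMQ against 40.5 and 39.2 FPKM for 7KC-IMQ. Its 7KC-IMQ libraries lay within the range of the Cont-IMQ libraries, and the 95% interval of the log2 difference ran from -0.22 to 0.21 around -0.01 (adjusted p = 0.978 in limma). *Erbb3* had 31.7 and 28.7 FPKM against 28.4 and 28.4 FPKM. Although the groups did not overlap, Cont-IMQ replicate 2 was close to the 7KC-IMQ libraries, and the log2 difference was -0.08 (standard error 0.08, 95% interval -0.30 to 0.13, adjusted p = 0.702 in limma). Without Cont-IMQ replicate 1 it was -0.02.
The order of the receptors was the same in every library, with *Erbb2* (40.0 FPKM over the 4 libraries) above *Erbb3* (29.3 FPKM) and *Erbb3* above *Egfr* (22.6 FPKM), and their ranges did not overlap. The summed receptor level was 89.1 and 93.2 FPKM for Cont-IMQ against 93.2 and 92.2 FPKM for 7KC-IMQ. As the skin was sequenced in bulk, fewer cells of a type and less RNA per cell cannot be told apart for any of these genes.

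**Figure D2:**
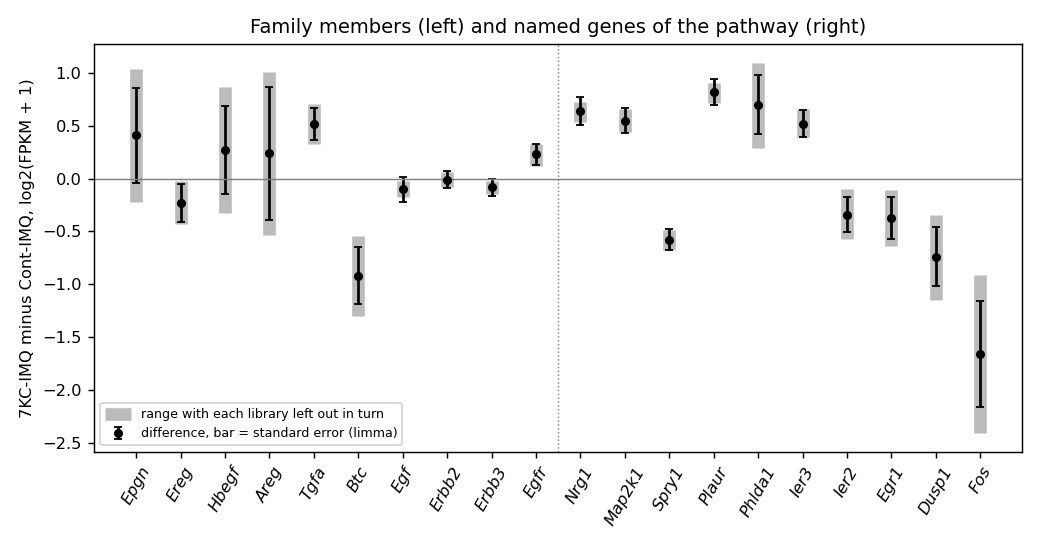
Difference of the group means on the log2(FPKM + 1) scale for the 10 members and for 10 named genes of the pathway, with the standard error from limma, and gray bars for the range when single libraries were omitted. The range crosses 0 for *Epgn*, *Hbegf*, *Areg* and *Erbb2*, and stays on 1 side for the other members, with *Btc* at -0.92 and *Tgfa* at 0.52. For *Btc*, *Tgfa*, *Egfr*, *Erbb3* and the pathway genes shown, it could not cross, as their groups do not overlap.

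The ligands *Areg*, *Epgn*, *Hbegf* and *Ereg* differed more between the libraries of each group than between the group means. On the log2(FPKM + 1) scale, the 2 libraries of a group differed in *Areg* by 1.13 in the Cont-IMQ group and by 1.55 in the 7KC-IMQ group. Over all genes tested, the median of this difference was 0.14 and 0.11. A difference between libraries at least as large as that of *Areg* was found in 1.54% of genes in the Cont-IMQ group, in 0.182% in the 7KC-IMQ group and in 0.0818% in both groups. The difference of *Epgn* was 1.25 and 0.48, and that of *Hbegf* was 0.43 and 1.20. These were reached in both groups by 0.296% and 0.195% of genes. In *Ereg* it was 0.41 and 0.32, reached by 3.48% of genes. For all 4 ligands, replicate 2 was the higher library in each group, but the number does not pair libraries between the groups.
Some target genes of the same signaling, which are known to be induced through EGFR and MAPK, also differed between the 2 libraries of each group. They were picked here after their values were seen. *Errfi1*, which encodes the EGFR inhibitor MIG6, had 76.2 and 148 FPKM for Cont-IMQ against 75.2 and 137 FPKM for 7KC-IMQ. *Dusp6*, a phosphatase of ERK, had 75.6 and 136 FPKM against 91.4 and 133 FPKM. *Fosl1*, which encodes the AP-1 subunit FRA1, had 2.51 and 9.68 FPKM against 3.69 and 9.94 FPKM. Replicate 2 was the higher library of both groups in all 3 genes, which their choice fixed, and the groups overlapped. Of the 35 feedback inhibitors and early response targets tested, 20 were higher in replicate 2 of both groups, 4 were lower in both and 11 differed in direction. The same count was not made over all genes tested, so these numbers have no background to stand beside. *Btc* was lower in 7KC-IMQ replicate 2 than in replicate 1 and differed by 0.08 between the Cont-IMQ libraries.

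**Figure D3:**
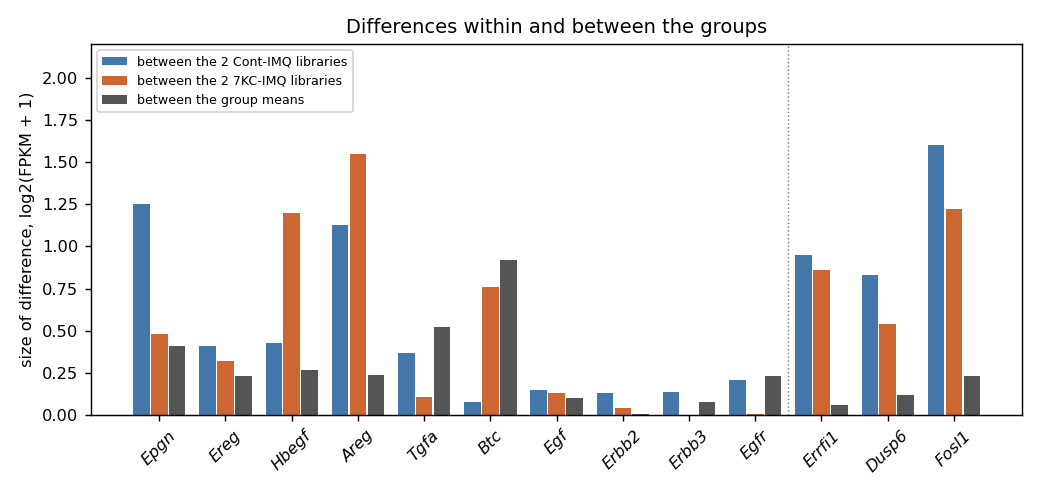
Size of the difference on the log2(FPKM + 1) scale between the 2 libraries of the Cont-IMQ group, between the 2 libraries of the 7KC-IMQ group and between the group means, for the 10 members and *Errfi1*, *Dusp6* and *Fosl1*. The difference within both groups exceeds that between the group means in *Epgn*, *Ereg*, *Hbegf*, *Areg* and the 3 target genes, as it does for the small differences of *Egf* and *Erbb2*, and is below it in both groups for *Tgfa*, *Btc* and *Egfr*.

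Of the 7 ligand genes, 4 lie next to each other on chromosome 5 of GRCm38, the assembly also called mm10. *Epgn* (91027464 to 91035215), *Ereg* (91074622 to 91093646) and *Areg* (91139599 to 91148432) are on the plus strand and *Btc* (91357261 to 91402994) is on the minus strand, within 375.5 kb that hold these 4 protein-coding genes and no other. The 3 genes on the plus strand overlapped between the groups, and *Btc*, at the far end, was lower without overlap. On the side of *Epgn*, the chemokine genes *Cxcl3*, *Cxcl1* and *Cxcl2*, chosen for their position, start at -241.4, -136.2 and -123.6 kb from its start. Their log2 differences were 1.49, 1.31 and 1.16, higher in both 7KC-IMQ libraries (adjusted p = 0.331, 0.352 and 0.352 in limma). *Mthfd2l*, the gene between them and *Epgn*, overlapped, with a log2 difference of 0.11. Farther out, *Cxcl5* was higher without overlap, with 0.134 and 0.0906 FPKM against 0.335 and 0.227 FPKM, a log2 difference of 0.20 that the pseudocount keeps small, and *Pf4*, a platelet chemokine gene, was lower without overlap, at -0.43 (adjusted p = 0.354 in limma).
*Tgfa* (chromosome 6, 86195223 to 86275719), *Egf* (chromosome 3, 129677565 to 129755316) and *Hbegf* (chromosome 18, 36504927 to 36515805) stand alone. *Egfr* is on chromosome 11 (16752203 to 16918158), as is *Erbb2* (98412470 to 98437716), and *Erbb3* is on chromosome 10 (128567523 to 128589652). Of the 75-base windows of the members' transcripts, 0% occurred in the same direction in a transcript of another gene. Reverse complements of the windows were not compared. Exons of antisense genes cover 3.42% of the exon bases of *Ereg* and 1.82% of those of *Tgfa*. For *Egf* they cover 5.38% (*Gm42697*) and 4.43% (*6330410L21Rik*), and for *Erbb2* 0.17% (*Mien1*). The libraries were made with a stranded kit, but whether the counting used the strand is not given in the sources used here.

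**Figure D4:**
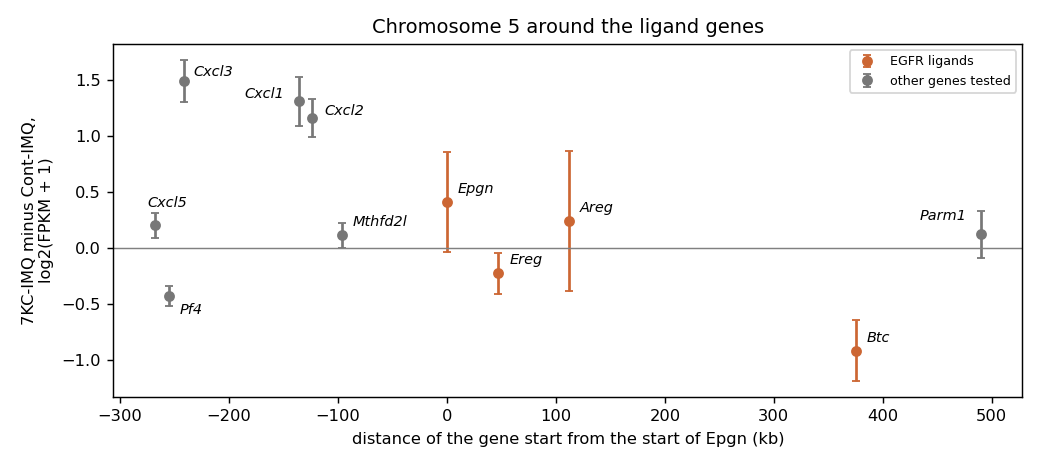
Difference between the groups on the log2(FPKM + 1) scale, with its standard error from limma, against the distance in kb of each gene start from the start of *Epgn*, for the tested genes around the 4 ligand genes of chromosome 5. The chemokine genes *Cxcl3*, *Cxcl1* and *Cxcl2* stand above 1, the ligands *Epgn*, *Ereg* and *Areg* lie between -0.23 and 0.41 and *Btc* is at -0.92.

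The rest of the pathway was described by 74 genes in 5 lists, of which 72 were tested and 0 passed the adjusted threshold in limma. At an unadjusted p-value under 0.05, 6 were higher with 7KC and 3 were lower, beside 7.5% and 5.47% of all genes tested. Without overlap, 19 (26.4%) were higher and 15 (20.8%) lower, again near the 23.9% and 22.9% of all genes, and their median log2 difference was -0.00.

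Among the neuregulins, the ligands of ErbB3 and ErbB4, *Nrg1* was higher in the 7KC-IMQ group. It had 1.54 and 1.80 FPKM for Cont-IMQ against 2.88 and 3.44 FPKM for 7KC-IMQ. The groups did not overlap, with a log2 difference of 0.64 (standard error 0.13, 95% interval 0.30 to 0.98, adjusted p = 0.352 in limma) that stayed between 0.54 and 0.73 with each library left out. *Nrg4* had 3.47 and 2.78 FPKM against 3.74 and 3.56 FPKM, and *Nrg2* overlapped, with 1.63 and 2.15 FPKM against 1.69 and 1.43 FPKM. *Nrg3* and the receptor gene *Erbb4* were under the limit for testing, with at most 0.0344 and 0.0320 FPKM in any library.
The proteases that release the ligands and their iRhom partners differed little. Of 9 genes, 2 were higher without overlap (22.2%, beside 23.9% of all genes) and 0 lower, and the log2 differences lay between -0.13 and 0.21. *Adam17*, the main sheddase of the ligands in skin, had 30.7 and 28.9 FPKM for Cont-IMQ against 29.6 and 31.2 FPKM for 7KC-IMQ. *Rhbdf2*, which encodes iRhom2, the partner that brings ADAM17 to the surface, had 23.9 and 24.2 FPKM against 28.1 and 27.8 FPKM. That is a log2 difference of 0.21 (standard error 0.07, adjusted p = 0.366 in limma), larger than the spread between replicates.

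In the adaptors and kinases, 6 of 25 genes were higher and 5 lower without overlap, and these shares of 24% and 20% were near the 23.9% and 22.9% of all genes. The largest difference was that of *Map2k1*, which encodes the ERK kinase MEK1, at 36.7 and 31.4 FPKM for Cont-IMQ against 46.7 and 53.6 FPKM for 7KC-IMQ. Its log2 difference was 0.55 (standard error 0.12, 95% interval 0.24 to 0.86, adjusted p = 0.354 in limma).
Of the 18 feedback inhibitors, 4 were higher and 6 lower without overlap. These are 22.2% and 33.3%, beside 23.9% and 22.9% of all genes. With the libraries rescaled to the same sum, 32.1% of all genes were lower, but the inhibitors were not counted under that scaling. *Spry1*, which encodes a Sprouty inhibitor of RAS-MAPK signaling, had 31.1 and 35.7 FPKM for Cont-IMQ against 21.0 and 22.8 FPKM for 7KC-IMQ. Both 7KC-IMQ libraries were well below the Cont-IMQ libraries, with a log2 difference of -0.58 (standard error 0.10, 95% interval -0.85 to -0.32, adjusted p = 0.352 in limma) and a range of -0.68 to -0.49 with each library left out. The other 5 lower genes were *Spry2*, *Spred2* and the 3 genes of the LRIG family of membrane proteins, of which LRIG1 is known to restrain EGFR. *Lrig1* had 24.6 and 26.9 FPKM against 21.7 and 22.6 FPKM, and the log2 differences of these 5 genes lay between -0.29 and -0.18. Of the 4 higher genes, *Spry4* had 0.901 and 1.80 FPKM against 2.00 and 2.25 FPKM, and the others, *Spred3*, *Cblb* and *Socs5*, had log2 differences of 0.08, 0.12 and 0.17.

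The early response targets held the largest differences of the pathway and went in both directions, with 5 of 17 higher and 4 lower without overlap (29.4% and 23.5%, beside 23.9% and 22.9% of all genes). *Plaur*, which encodes the urokinase receptor, had 10.6 and 9.17 FPKM for Cont-IMQ against 19.4 and 16.9 FPKM for 7KC-IMQ. Its log2 difference was 0.82 (standard error 0.12, 95% interval 0.51 to 1.13, adjusted p = 0.343 in limma), with a range of 0.72 to 0.91 with each library left out. *Ier3*, a gene of the early response to growth factors and NF-κB, had 121 and 140.4 FPKM against 170.5 and 207 FPKM. *Phlda1* had 28.9 and 32.3 FPKM against 37.6 and 66.8 FPKM, and its log2 difference of 0.70 was 0.29 without 7KC-IMQ replicate 2.
*Fos*, the AP-1 subunit gene that is induced within minutes, was lower in the 7KC-IMQ group. It had 496 and 546 FPKM for Cont-IMQ against 97.4 and 277 FPKM for 7KC-IMQ. The log2 difference of *Fos*, -1.66 (standard error 0.50, adjusted p = 0.36 in limma), became -0.91 without 7KC-IMQ replicate 1. *Dusp1*, a phosphatase of MAP kinases, had 273 and 279 FPKM against 124 and 218 FPKM. Its log2 difference of -0.74 was -0.34 without 7KC-IMQ replicate 1 and -1.15 without 7KC-IMQ replicate 2. *Egr1* had 301 and 337 FPKM against 204 and 295 FPKM, and *Ier2* had 151 and 157 FPKM against 104 and 143 FPKM. With each library left out, their differences ranged from -0.64 to -0.11 and from -0.57 to -0.10. As their groups did not overlap, the direction could not turn. In these 4 lower genes, 7KC-IMQ replicate 1 was the lowest library.

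Markers of the cells that the skin holds are given for both groups, and their part in the results was not tested. The counts of their genes without overlap stand beside 23.9% higher and 22.9% lower among all genes tested, and most lists overlapped in their sums. Of the 9 epidermal markers in the files, 1 was higher and 3 lower without overlap. The sum of the epidermal markers was 16422 to 24417 FPKM for Cont-IMQ against 18822 to 20837 FPKM for 7KC-IMQ. *Krt15*, a keratin of basal and hair follicle bulge cells, had 216 and 172 FPKM against 123 and 96.9 FPKM. The basal keratin gene *Krt14* was higher, with 4409 and 4132 FPKM against 4807 and 5700 FPKM, and *Krt5* overlapped, with 3062 and 2544 FPKM against 2783 and 2730 FPKM. Of the 5 endothelial markers, 4 were lower without overlap, and their sum was 48.3 to 53.8 FPKM for Cont-IMQ against 39.7 to 41.5 FPKM for 7KC-IMQ. The mast cell markers, of which 3 of 7 were lower, summed to 105 to 107 FPKM against 87.5 to 92.0 FPKM. In the T cell list, 1 of 5 genes tested was higher and 2 lower, with sums of at least 16.7 FPKM against 12.1 to 14.9 FPKM. Its highest gene, *Cd3g*, had 10.1 and 9.61 FPKM against 7.62 and 5.59 FPKM and was the largest part of these sums. The other lower gene was *Cd3e*. *Cd3d* was higher, with 1.45 and 1.46 FPKM against 1.57 and 1.47 FPKM, and *Cd4* and *Lck* overlapped. Of the 6 neutrophil markers tested, 4 were higher and 2 lower, with sums of 35.1 to 47.7 FPKM against 44.8 to 46.4 FPKM. The macrophage markers were lower in 2 of 8 genes and summed to 576 to 734 FPKM against 555 to 607 FPKM. In the sebaceous gland list, 4 of 8 genes were higher and 2 lower, with sums of 518 to 632 FPKM against 696 to 703 FPKM. The hair follicle markers overlapped in all 15 genes. For the adipocyte list, 3 of 7 genes were higher and the sums overlapped, at 1608 to 2438 FPKM against 1825 to 2365 FPKM. The fibroblast list (1 of 7 higher and 1 lower, 2590 to 3531 FPKM against 2916 to 3316 FPKM) and the skeletal muscle list (2 of 9 higher and 2 lower, 8082 to 8592 FPKM against 6945 to 8256 FPKM) overlapped in their sums as well.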

How the data were processed

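RNA of IMQ-treated dorsal skin was sequenced by the authors in 75-base single-end mode and mapped to mm10. The authors deposited 1 FPKM value per gene symbol and library. The submitters' processing notes name TopHat2 2.1.1, Bowtie2 2.2.8, SAMtools 0.1.18 and Cuffdiff 2.2.1, while the paper's methods name Cufflinks and other versions. FPKM already holds the scaling to depth and gene length, and how reads that map to several genes were treated is not given in the sources used here.

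From the deposited FPKM, log2(FPKM + 1) was computed without further scaling, and the groups, taken from the sample titles, were compared by limma 3.58.1 (R 4.3.3) with a variance trend, 95% intervals and Benjamini-Hochberg adjustment over all genes whose FPKM averaged 0.1 or more. The fit was also run on simulated data, with changes larger than those of any member and a spread set by the level alone. That run cannot say how the fit does on genes that vary as widely between libraries as *Areg*. Depth was estimated as the number of reads that brings low values of genes with 1 transcript closest to whole reads. Between 73.4% and 76.1% of these genes were then within 0.1 of a whole read. The depth was picked to make this share largest, and the 20% expected by chance holds only for a depth fixed beforehand. The reads of a member were estimated with the length of its longest coding transcript, so they are rough where its transcripts differ in length. Coordinates came from GENCODE M21 (GRCm38) and promoters from RefSeq (GRCm38.p6).

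The members and lists were chosen with earlier results of these data known. Genes named were the 10 members, the neuregulin, protease and inhibitor lists, the 5 largest higher and lower pathway genes without overlap at a mean of at least 1 FPKM, pathway genes with an unadjusted p-value under 0.01, and the highest gene of a marker list. Others named (*Errfi1*, *Dusp6* and *Fosl1* for their spread, *Krt15*, *Krt14*, *Krt5*, the further T cell markers and the neighbors on chromosome 5) were chosen after their values or positions were seen. *Flg*, *Ly6g* and *Trac* of the marker lists are not among the symbols used. Alternatives were another pseudocount, filter, scaling or variance model, the replicate number as a block, and each library left out. The correlation of the deviations of same-numbered libraries was 0.065, and the labels tie no replicate number to a litter, batch or day.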

Additional observations from a re-analysis of the deposited data

How the results depend on the processing

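Of 240 values of 20 named genes under 12 alternatives, 234 kept their direction. In the alternatives that kept all libraries, 0 passed the threshold. Another filter, another variance model and the replicate block cannot change the difference of a gene, so the values under these were bound to keep it. The 6 that turned all came from leaving out a library: *Hbegf* at -0.33 (range -0.33 to 0.87), *Areg* at -0.32 and -0.53 (range -0.53 to 1.01), *Epgn* at -0.22 (range -0.22 to 1.04) and *Erbb2* at 0.06 and 0.01 (range -0.08 to 0.06), and the cause was not tested. The 10 named pathway genes kept their direction in every alternative. They were chosen without overlap between the groups, so leaving out a library could not turn them. The same holds for the members *Btc*, *Tgfa*, *Egfr* and *Erbb3*, whose groups did not overlap.

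The number of genes past the threshold was 1, but 2 with a pseudocount of 0.1 and 71 without the filter, which adds genes near 0. It was 1 to 9 with a library left out, at 9 without Cont-IMQ replicate 1 and 5 without Cont-IMQ replicate 2. With the same FPKM sum in each library, 1 member was higher without overlap in place of 2. Of the 72 pathway genes tested, 12 were higher and 25 lower in place of 19 and 15. Under that scaling, 15% of all genes tested were higher without overlap and 32.1% lower, so the shift was not particular to the pathway. Leaving out a library, which leaves an arm with 1 sample that is assumed to vary like the other group and makes overlap rarer, gave 2 to 5 members higher and 2 to 5 lower, with 5 higher without Cont-IMQ replicate 2 or 7KC-IMQ replicate 1, and 5 and 4 lower without Cont-IMQ replicate 1 and 7KC-IMQ replicate 2. It gave 24 to 30 pathway genes higher and 24 to 28 lower. The share of all genes tested was not counted with a library left out, so these counts of members and pathway genes have no background to stand beside.

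With the replicate number as a block, the difference of *Btc* was -0.92 (adjusted p = 0.44 in limma), 0 of the 20 named genes passed, and 1 gene passed among all those tested. Whether it was the gene that passed without the block was not compared.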
